A study of Homo sapiens with 2 samples.

Results

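The replication licensing genes CDC6, CDT1, GMNN, MCM2, MCM3, MCM4, MCM5, MCM6, MCM7 and MCM10 were compared between MKN45P and MKN45. They were chosen by name, as the probesets whose platform annotation gives exactly 1 symbol and that symbol among these, and all 10 were found among the 18923 symbols on the array. The 2 samples were total RNA from cell lysates of the human gastric cancer line MKN45 and of MKN45P, labelled a high-metastatic line with MKN45 as its parent, with 1 exon array each and no drug treatment named in the labels. Both were grown in serum-supplemented medium and harvested with trypsin, and ribosomal RNA was reduced before labelling, per the protocols in the labels. How MKN45P was derived, and whether either culture was a single clone, is not given in the sources used here. An exon array reads each gene with several small groups of probes (probesets), and every level below is the deposited log2 value of a probeset or the median over a gene's probesets. With 1 array per line there was no replicate error and no test of a difference, so the spread given is that between probesets of 1 gene within these arrays.

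Licensing is the step by which a chromosome is made ready to be copied once per cell cycle. In G1 the origin recognition complex, CDC6 and CDT1 load the ring-shaped helicase formed by MCM2 to MCM7 onto DNA, and in S phase geminin, the product of GMNN, binds CDT1 and prevents reloading. MCM10 is not part of the ring and acts later, when the loaded helicase is activated at the start of synthesis. Transcription of many of these genes is driven by the E2F factors at the passage from G1 to S, and MCM proteins serve as markers of cycling epithelial cells in stomach tissue.

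The promoters of CDC6, MCM6 and MCM10, which had the largest positive differences, and of MCM7, which differed little, are shown to let the letters be set beside the values. The sequences are from RefSeq (GRCh38.p14), whose promoter table matched 8 of the 10 genes; MCM4 and MCM5 were not matched. Positions count from the annotated start, with -1 the base before it, and capitals mark matches to the E2F motif TTTNGCGC on either strand, which may overlap. The CDC6 and MCM10 stretches and that of MCM7 run from -150 to 20, and that of MCM6 from -170 to -1.
CDC6 (chr17:40287729-40287898, plus strand): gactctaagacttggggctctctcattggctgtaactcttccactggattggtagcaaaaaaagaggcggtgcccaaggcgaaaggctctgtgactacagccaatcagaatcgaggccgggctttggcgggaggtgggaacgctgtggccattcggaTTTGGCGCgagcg
MCM6 (chr2:135876444-135876613, minus strand): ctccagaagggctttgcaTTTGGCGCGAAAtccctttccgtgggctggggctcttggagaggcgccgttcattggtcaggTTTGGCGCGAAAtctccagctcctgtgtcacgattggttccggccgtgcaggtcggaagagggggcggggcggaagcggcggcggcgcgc
MCM10 (chr10:13161408-13161577, plus strand): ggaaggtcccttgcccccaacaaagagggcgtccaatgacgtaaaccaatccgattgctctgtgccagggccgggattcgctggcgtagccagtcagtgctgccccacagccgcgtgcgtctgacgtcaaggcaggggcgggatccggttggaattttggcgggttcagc
MCM7 (chr7:100101378-100101547, minus strand): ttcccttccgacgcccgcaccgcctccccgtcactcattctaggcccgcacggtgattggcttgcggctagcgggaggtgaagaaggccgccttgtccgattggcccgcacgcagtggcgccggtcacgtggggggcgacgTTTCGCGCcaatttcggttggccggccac

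Over windows of 300 bases, from 250 before to 50 after a start, the motif was present in a promoter of 7 of the 8 matched genes, MCM10 being the exception. The same motif was present in 1.79% of all 35116 promoters in the table and for 2.17% of genes. MCM6 had 4 matches, in 2 places where the letters read as the motif on both strands and overlap. Its promoter was the 1 in the table with 4 or more (0.00285%), a cut equal to its own count. MCM2 also had overlapping matches on both strands, at 3 to 10 and 7 to 14. CDC6 had 1 match, at 8 to 15 after its start, and MCM7 had 1 at -9 to -2, in the outermost of its 3 promoter windows. The motif CCAAT, searched on both strands, was present for 6 of the 8 genes and for 39.7% of all genes in the table. These matches describe letters only, and their relation to the differences was not tested. No other form of an E2F site was searched, so a window without TTTNGCGC, as for MCM10, may still hold one.

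CDC6, which recruits the helicase to the origin, differed most. In MKN45 its 12 probesets read, in order of identifier, 8.08, 6.59, 4.82, 5.10, 6.16, 4.71, 8.80, 5.18, 5.01, 5.94, 1.63 and 5.48, with a median of 5.33. In MKN45P they read 9.81, 8.89, 6.86, 6.47, 8.46, 7.77, 9.83, 8.60, 7.71, 8.73, 1.78 and 8.39, with a median of 8.43. Every CDC6 probeset was higher in MKN45P, and 11 of the 12 were at least 2-fold higher. The median of the probeset differences was 2.30 in log2 units, or 4.92-fold (interquartile range 1.64 to 2.81). The smallest difference, 0.15, came from the single probeset at the low end of the scale in both lines (1.63 and 1.78), and the largest, 3.42, from probeset 3720910. The probeset with the highest MKN45 level (8.80) had the next smallest difference, 1.03. CDC6 stood 64th from the top of 13130 measured genes, where a gene was measured if it had at least 4 probesets and a median level of at least 1.92, the midpoint of the probesets on the array. Every probeset was higher in 3.14% of measured genes.

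CDT1, the partner of CDC6 in loading, had nearly equal levels. Its 15 probesets had medians of 4.26 in MKN45 and 4.30 in MKN45P, with a difference of 0.18 (interquartile range -0.36 to 0.42). Of its probesets 9 were higher and 6 lower in MKN45P, from -0.94 to 1.02, so the sign was not shared along the gene. GMNN, its inhibitor, had medians of 3.20 and 4.01 and a difference of 0.62 (0.18 to 0.91). Of its 10 probesets 8 were higher, and the lowest difference, -0.60, was at probeset 2898607, which had the highest MKN45 level of the gene (6.02). A probeset is said below to have signal if the mean of its values in both arrays reaches 2.77, the 75th percentile over the whole array, and a gene if the median of those means does.

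**Figure D1:**
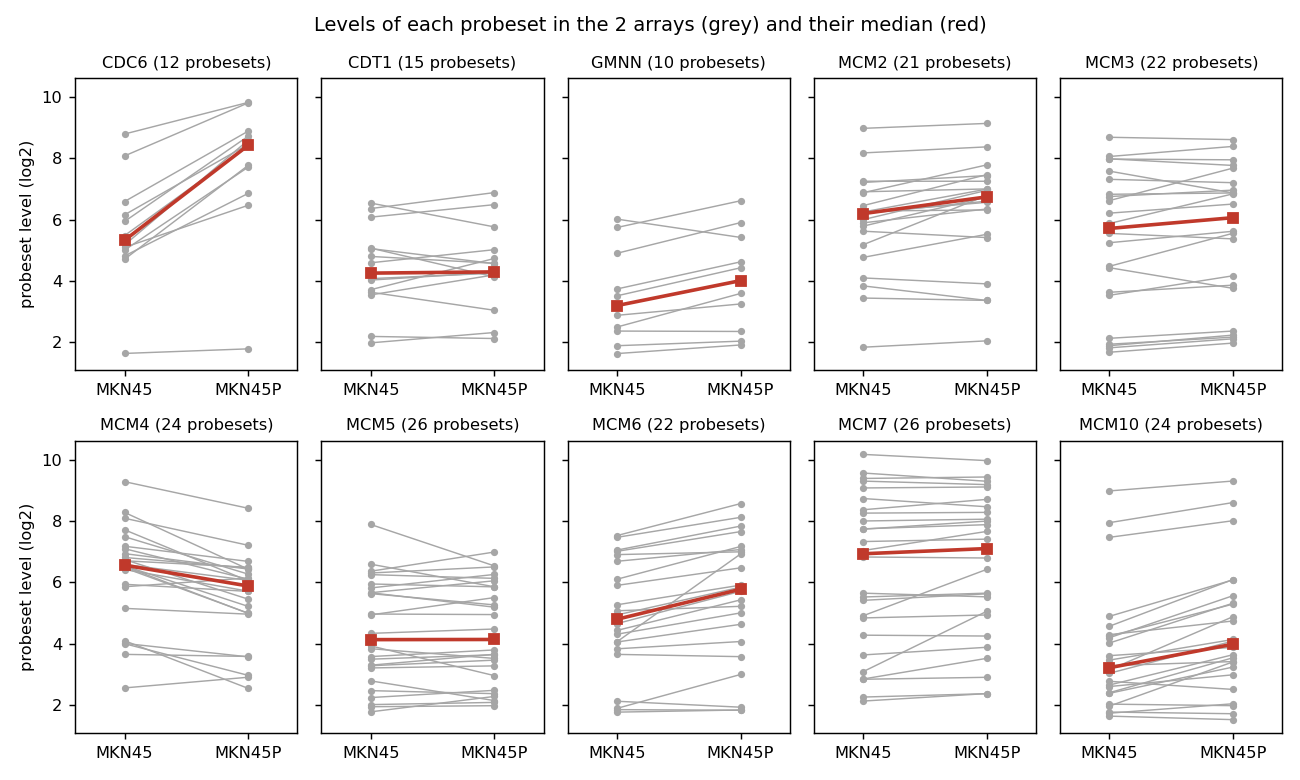
Level of each probeset (log2, vertical axis) in MKN45 and MKN45P for each licensing gene; grey lines join the values of 1 probeset and red squares are medians over probesets, with 1 array per line. CDC6 lines all slope upward, from a median of 5.33 to 8.43, most MCM4 lines slope downward, from 6.56 to 5.88, and the CDT1 medians are 4.26 and 4.30.

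The 6 subunits of the helicase ring, which assemble in equal numbers, did not share 1 difference. Their differences ran from -0.79 for MCM4 to 0.64 for MCM6, a span of 1.43 in log2 units, with a median of 0.16. None of the 6 was 2-fold higher or lower.

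MCM6 was the subunit with the largest positive difference. Its 22 probesets had medians of 4.80 in MKN45 and 5.78 in MKN45P, and the difference was 0.64, or 1.56-fold (0.17 to 0.97). Of these probesets 19 were higher and 5 were at least 2-fold higher. Probeset 2577900 stood apart, with 4.06 in MKN45 and 6.93 in MKN45P, a difference of 2.86. It lay 2.22 above the gene's own difference and was the 1 probeset, of 171 with signal in the licensing genes, that departed from its gene by 2 or more in log2 units.

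MCM4 was the 1 licensing gene with a negative difference. Its 24 probesets had medians of 6.56 in MKN45 and 5.88 in MKN45P, and the difference was -0.79, a fold of 1.73 (-1.30 to -0.32). Of its probesets 22 were lower and 9 were at least 2-fold lower; the largest was -1.85, at probeset 3097168, with 8.29 in MKN45 and 6.43 in MKN45P. The 2 higher probesets differed by 0.29 and 0.35. In order of identifier, the first 12 MCM4 probesets had a median of -1.16, with 7 of them at least 2-fold lower, and the last 12 a median of -0.50, with 2 at least 2-fold lower, a division made after the values were seen. MCM4 stood 275th from the bottom of the measured genes.

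MCM2, MCM3, MCM5 and MCM7, the other subunits of the ring, differed by less than 1.5-fold. MCM2 had medians of 6.20 and 6.75 and a difference of 0.22 (0.04 to 0.75), with 16 of 21 probesets higher in MKN45P. MCM3 had medians of 5.72 and 6.07 and a difference of 0.23 (-0.06 to 0.34), with 15 of 22 higher. MCM5 had medians of 4.13 and 4.14 and a difference of 0.07 (-0.27 to 0.23), which became -0.04 with the mean over probesets and -0.05 with centring on genes with signal. Its 3 lowest probesets, at -1.35, -0.97 and -0.74, have consecutive identifiers (3944179, 3944180 and 3944181), with 7.89 in MKN45 and 6.54 in MKN45P at the lowest.

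MCM7 had medians of 6.94 and 7.11 and a difference of 0.09, with the narrowest interquartile range of the 10 genes (-0.02 to 0.25). Of its 26 probesets 2 with consecutive identifiers stood above the rest: 3063704 had 3.09 in MKN45 and 5.06 in MKN45P, a difference of 1.97, and 3063705 had 4.91 and 6.43, a difference of 1.51. The other 24 lay between -0.27 and 0.67. The MCM7 difference was -0.01 with quantile normalization, -0.0048 with a loess curve and -0.03 with centring on genes with signal, so its sign was not settled.

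MCM10, which acts in activating the loaded helicase, was higher in MKN45P. Its 24 probesets had medians of 3.22 in MKN45 and 3.98 in MKN45P, and the difference was 0.66, or 1.585-fold (0.30 to 1.15). Of its probesets 20 were higher and 9 were at least 2-fold higher, the largest by 1.73 at probeset 3235840. The lowest and highest MCM10 levels were 1.63 and 8.99 on the MKN45 array, and 1.52 and 9.31 on the MKN45P array.

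**Figure D2:**
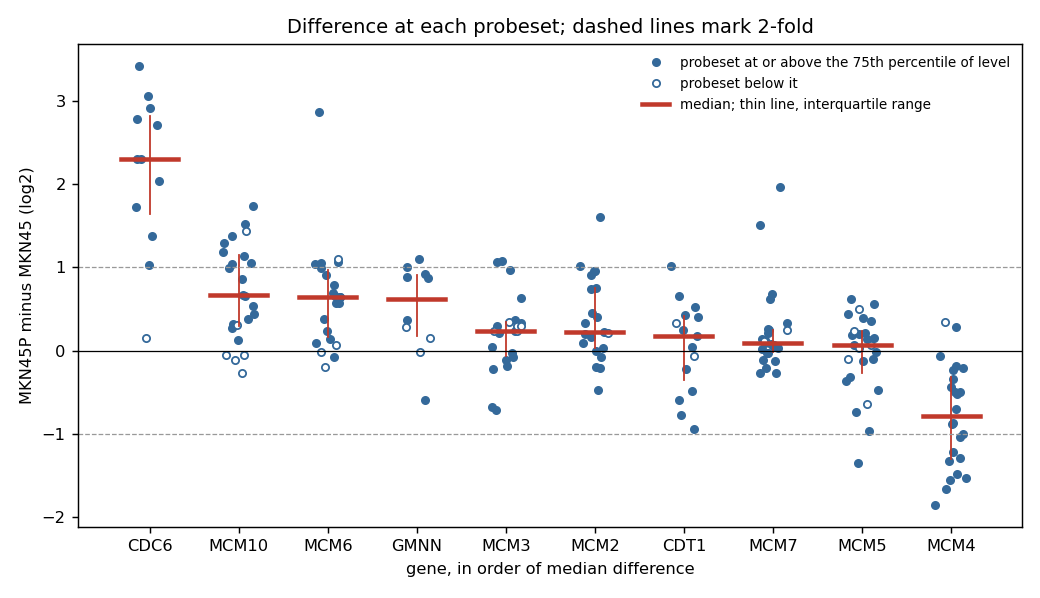
Difference of each probeset, MKN45P minus MKN45 (log2), for each licensing gene, in order of the median (red bar) with the interquartile range (thin red line); open points are probesets without signal. CDC6 at 2.30 and MCM4 at -0.79 have interquartile ranges that do not meet those of the genes beside them, and the other 8 genes overlap in a chain from 0.07 to 0.66.

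In the order of differences, CDC6 (2.30) was followed by MCM10 (0.66), MCM6 (0.64), GMNN (0.62), MCM3 (0.23), MCM2 (0.22), CDT1 (0.18), MCM7 (0.09), MCM5 (0.07) and MCM4 (-0.79). The interquartile range over probesets of CDC6 did not reach that of MCM10, nor that of MCM5 reach that of MCM4. Every other pair of neighbours in the order overlapped, and pairs further apart were not compared. These ranges are scatter between probesets with 1 array per line, so no place in the order was determined by them. The median SD over probesets was 0.55 in the licensing genes and 0.57 over all measured genes with signal. By that median their probesets scattered about as widely as those of other genes. CDC6 had the widest scatter of the licensing genes, with an SD of 0.945.

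Of the 10 licensing genes CDC6 alone passed 2-fold, upward. Over all 13130 measured genes 4.58% were 2-fold higher and 1.20% 2-fold lower, and over those with signal 7.25% and 1.86%; centred on genes with signal, the counts over all measured genes were 459 higher and 215 lower in place of 602 and 157, and CDC6 was still the 1 licensing gene past 2-fold. At 1.5-fold, 4 licensing genes were higher (CDC6, MCM10, MCM6 and GMNN) and MCM4 was lower, against 12.7% and 3.87% of measured genes. All 10 had signal, and among the 8081 measured genes with signal 19.0% were 1.5-fold higher and 5.79% lower. The count 1.5-fold higher depended on scaling and gene summary. It was 2 with quantile normalization and 1, CDC6, with loess or with centring on genes with signal. With the mean over probesets it was 3, GMNN being at 0.50. A difference above 0 was found in 9 of the 10, beside 54.9% of all measured genes and 62.8% of those with signal; it was found in 8 with the mean over probesets, quantile normalization or loess, and in 7 with centring on genes with signal. The median difference was 0.23, beside 0.03 over all measured genes and 0.12 over those with signal.

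**Figure D3:**
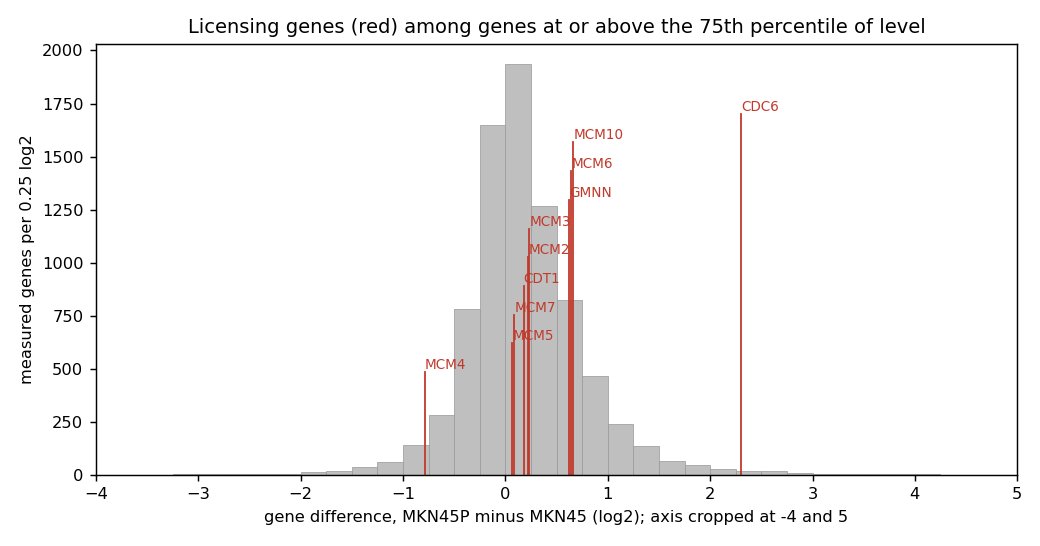
Number of measured genes with signal (8081 genes, grey bars, vertical axis) by difference, MKN45P minus MKN45 (log2, bins of 0.25), with the licensing genes as red lines whose heights have no meaning. The median of the grey genes is 0.12; CDC6 at 2.30 lies in the right tail and MCM4 at -0.79 on the left.

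Genes beside CDC6 on its chromosome did not show its difference. Among the 5 measured genes on each side in RefSeq order, none was 2-fold higher or lower, and the differences ran from -0.78 to 0.85 with a median of 0.12. The nearest were WIPF2, an actin regulator (0.85, with 3.97 in MKN45 and 5.02 in MKN45P), and RARA, a retinoic acid receptor (0.25, 2.83 and 3.31). Further on each side were CASC3 (0.45), MSL1 (0.36), NR1D1 (0.14) and RAPGEFL1 (-0.78), and TOP2A (0.03), IGFBP4 (0.09), GJD3 (-0.21) and TNS4 (-0.68). TOP2A, a topoisomerase of dividing cells, had 5.79 in MKN45 and 5.92 in MKN45P.

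The genes on one side of MCM4 were lower in MKN45P as it was, and those on the other side were not; MCM4 was singled out for this after its values were seen. The 5 measured genes before it were PRKDC, the catalytic subunit of the DNA-dependent protein kinase (-0.90, over 99 probesets), CEBPD (-0.71), SPIDR (-0.54), HGSNAT (-0.57) and POMK (-1.65, over 5 probesets). The order counts measured genes only, and distances between them were not examined. PRKDC, its nearest neighbour, had 7.21 in MKN45 and 6.30 in MKN45P. The 5 after it were UBE2V2 (-0.0022), PCMTD1 (0.37), ALKAL1 (0.03), RB1CC1 (0.65) and ATP6V1H (0.40). Of these 10 neighbours POMK alone passed 2-fold, and around each of the other 8 genes at most 1 of 10 did. Smaller differences of 1 sign on 1 side occurred elsewhere: the 5 measured genes after CDT1 were all lower, from -0.34 to -0.13, and the 5 after MCM2 all higher, from 0.01 to 0.79.

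**Figure D4:**
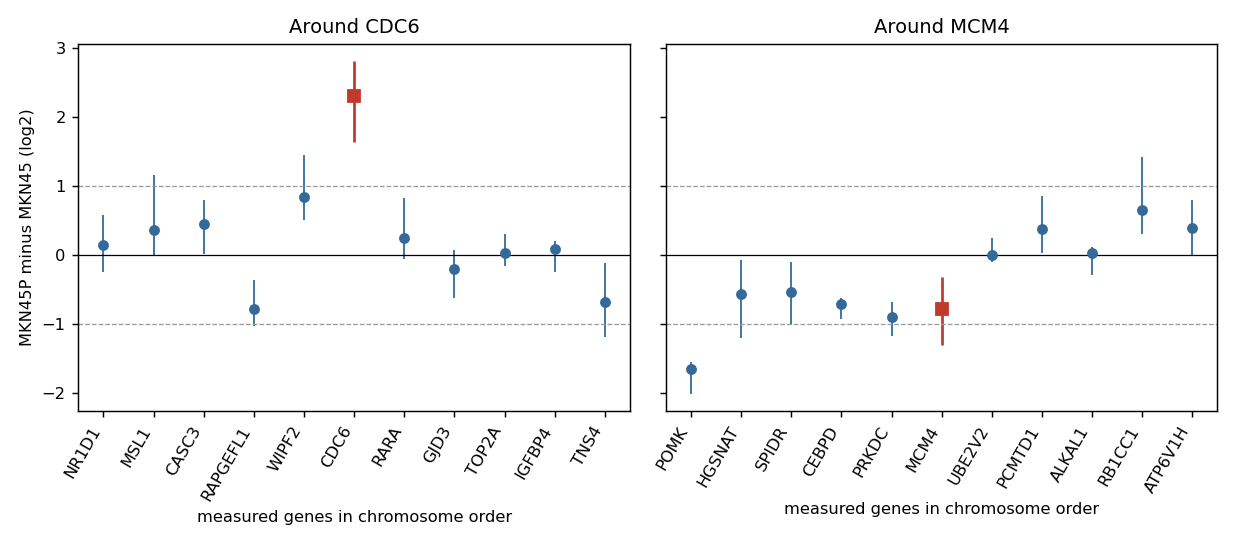
Differences, MKN45P minus MKN45 (log2, vertical axis), of CDC6 and MCM4 (red squares) and of the 5 measured genes on each side in chromosome order (blue points); lines are interquartile ranges over probesets. The neighbours of CDC6 lie between -0.78 and 0.85 around its 2.30, and the 5 genes before MCM4 lie between -1.65 and -0.54.

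The rest of the licensing and replication machinery was described with lists of its genes. Over all measured genes 4.58% were 2-fold higher, 1.20% 2-fold lower and 54.9% above 0. Over those with signal the shares were 7.25%, 1.86% and 62.8%. In origin recognition and MCM binding all 12 genes were measured and none was 2-fold higher or lower; 9 had a difference above 0 and the median was 0.25. The complex subunits ORC3 (0.92), ORC5 (0.73) and ORC6 (0.58) and LRWD1 (-0.79), which binds the complex, were the furthest from 0. ORC3 was near the low end in MKN45 (2.13, and 3.19 in MKN45P). Among 16 measured genes of helicase activation and firing none was 2-fold higher or lower, with a median of 0.07. The fork protection gene TIMELESS was at 0.60, TOPBP1, a scaffold for origin firing, at 0.58, DONSON at 0.51 and DBF4B, an activator of the CDC7 kinase, at 0.40. CDC45, which joins MCM2 to MCM7 in the active helicase, differed by -0.17.

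Genes of the replication fork had 3 of 27 members 2-fold higher and none lower, beside 4.58% and 1.20% of all measured genes. RFC5 (1.53, 5.38 in MKN45 and 6.79 in MKN45P) and RFC4 (1.32, 3.73 and 5.24) encode subunits of the clamp loader, and TOP1 (1.04, 6.93 and 7.84) a topoisomerase. RPA1, a subunit of the protein that covers single-stranded DNA, was at 0.84. PCNA, the clamp itself, differed by -0.07, and the median was 0.26. With quantile normalization, loess or centring on genes with signal 2 fork genes were 2-fold higher, and TOP1, at 1.04, is under 2-fold once that centring takes off 0.12.

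In the list named for turnover of licensing proteins, none of 15 measured genes was 2-fold higher or lower. DTL, the adaptor through which CDT1 is marked for destruction in S phase, was just under 2-fold higher (0.97, 4.97 in MKN45 and 5.63 in MKN45P, 16 of 17 probesets higher). CACUL1 was at 0.88 and SIAH1 at 0.82. SKP2, another ubiquitin ligase component that acts on CDT1, was at -0.75 (6.07 and 5.24, 11 of 14 probesets lower), and the list's median was 0.10.

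In the list of E2F and G1/S control 2 of 27 measured genes were 2-fold higher and none lower. The shares over all measured genes were 4.58% and 1.20%. TFDP2, a partner of E2F proteins in DNA binding, differed by 1.36 (4.14 in MKN45 and 5.76 in MKN45P), and RB1, which restrains E2F, by 1.30 (2.82 and 4.78). The inhibitor of cyclin-dependent kinases CDKN1B was at 0.96 and the cyclin gene CCNE1 at 0.67; E2F1 itself was at -0.20, and the median was 0.20. Of 17 measured S phase genes regulated by E2F, RRM2, a subunit of ribonucleotide reductase, was 2-fold higher (1.05, on 4 probesets), with RAD51AP1 at 0.86, the mismatch repair gene MSH6 at 0.81 and the histone mRNA binding gene SLBP at 0.67 (median 0.23). No gene of that list was 2-fold higher in 5 of the 9 other settings, in one of which RRM2 has too few probesets.

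Mitotic genes had 1 of 19 measured members 2-fold higher, NDC80, a kinetochore gene (1.25, 2.60 in MKN45 and 4.33 in MKN45P), and 1 lower, the kinesin KIF20A (-1.24, 4.38 and 2.63). Over all measured genes 4.58% were 2-fold higher and 1.20% lower. The kinase AURKB was at 0.74 and BUB1 at 0.58, and the median of the mitotic genes was 0.16. MKI67, the gene of the Ki-67 antigen of cycling cells, was at -0.49, with 7.06 in MKN45 and 6.69 in MKN45P. Levels in a culture sum over cells in all phases, so more cells in a phase and more RNA per cell cannot be told apart.

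**Figure D5:**
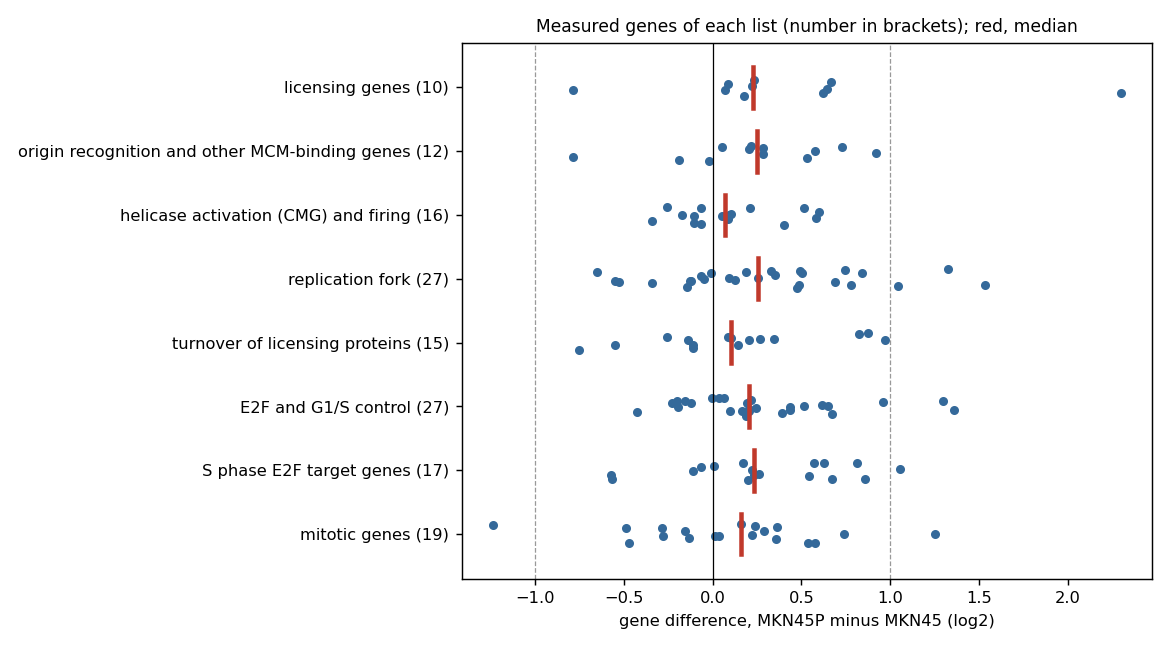
Differences, MKN45P minus MKN45 (log2, horizontal axis), of the measured genes of each list, with the number of genes in brackets and the median in red; dashed lines mark 2-fold. The medians lie between 0.07 and 0.26, and CDC6 at 2.30 lies to the right of every other gene in these lists.

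The labelled cell type was checked against its markers. Of 9 gastric epithelial markers 8 had signal, among them CDH1 (10.26 in MKN45 and 10.74 in MKN45P) and EPCAM (6.39 and 7.43), and TFF2 was near the low end in both (1.92 and 1.80). None of 4 fibroblast, 4 immune and 3 endothelial markers had signal by the mean of both arrays; their medians in the single arrays ran from 1.65 to 2.86, the highest being COL1A1 in MKN45P. All 4 mesothelial markers had signal in these epithelial lines: CALB2 (8.70 and 9.49), UPK3B (6.26 and 4.50), WT1 (5.32 and 4.18) and MSLN (3.996 and 4.50). Their part in the values above was not tested.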

How the data were processed

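One exon array of MKN45 and 1 of MKN45P were used. The values were deposited by the authors on a log2 scale, 1 per probeset and array, for 877986 probesets; per the submitters' processing notes, Partek and hg18 were used, and the sources used here do not name the background correction, probe summary or normalization. The log base was read from the values, whose highest (13.48) would exceed a 16-bit scanner as a natural logarithm. Values were used as deposited, without detection calls; the number of arrays limits the precision.

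The 286871 probesets with exactly 1 symbol were used. A gene's difference was the median over its probesets of MKN45P minus MKN45. Named were every licensing gene; in each other list the genes past 2-fold, made up to 4 by size; and the neighbours of CDC6. CDC45, PCNA, E2F1, MKI67 and the neighbours of MCM4 were named outside that rule, after their values were seen. Names of older symbols and gene order came from RefSeq (GRCh38.p14). The genes and lists were chosen with earlier results of these data known. With 1 array per line no test was possible. Python 3.11.15, numpy 2.4.6, pandas 2.3.3 and statsmodels 0.14.6 were used, and the gene step was tested on simulated data. Alternatives were 3 scalings, 2 other gene summaries, probesets with signal only, probesets with several symbols, and 2 other gene filters.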

Additional observations from a re-analysis of the deposited data

How the results depend on the processing

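CDC6 remained the 1 licensing gene past 2-fold upward, and none was past it downward, in the main setting and all 9 others; CDC6 ran from 2.15 to 3.10 and MCM4 from -0.92 to -0.68. The signs of MCM5 (-0.05 to 0.10) and MCM7 (-0.03 to 0.22) were not settled. No difference of a licensing gene moved by as much as its SD over probesets. The count of licensing genes 1.5-fold higher was an outcome added after seeing the data. It went from 4 to 3 with the mean over probesets and to 2 with quantile normalization. With loess and with centring on genes with signal it was 1. That centring lowers every difference by 0.12 by construction, which took the median of all measured genes from 0.03 to -0.09; the medians became 0.11 for licensing, 0.13 for origin recognition, -0.053 for helicase activation, 0.13 for the fork, -0.020 for turnover, 0.083 for E2F and G1/S control, 0.11 for S phase and 0.036 for mitotic genes.

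With the difference of median levels, the medians were 0.45 for licensing, 0.43 for origin recognition, 0.58 for the fork, -0.089 for turnover and 0.33 for E2F and G1/S control. The counts 2-fold higher were then 1 in origin recognition, 6 in the fork and 1 in turnover. They were 4 in E2F and G1/S control and 4 in mitotic genes. Over all measured genes 9.62% were 2-fold higher in that setting, against 4.58% in the main setting, and the median was 0.07. With probesets with signal only, the medians were 0.38 for origin recognition, 0.48 for S phase and 0.27 for mitotic genes, and the counts 2-fold higher were 1 in origin recognition, 6 in the fork, 1 in turnover and 4 in S phase. Of all genes measured with those probesets, 11.4% were 2-fold higher, and the median was 0.09. With the mean over probesets the fork median was 0.38, and 1 origin recognition gene and 0 S phase genes were 2-fold higher. The share of all measured genes was then 4.91%. The S phase count was also 0 with quantile normalization, loess, centring and at least 10 probesets. The cause of these moves was not tested, apart from the centring.

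No paired analysis was possible because each line has 1 array. Leaving out a replicate was not possible either. No array-to-array error is known. The choice of probesets with signal uses the mean of both arrays, so a probeset high in 1 line can enter through that line alone.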
